A study of Arabidopsis thaliana with 6 samples.

Results

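The rpoB operon of the Arabidopsis plastid genome holds 3 genes, rpoB, rpoC1 and rpoC2. They were taken as the probe sets that the array annotation pairs with one gene of these names, which gave 3 probe sets, 1 per gene, of the 22746 tested. They are also 3 of the 69 plastid protein-coding genes that had a probe set of their own. The arrays are Affymetrix expression arrays of the aerial parts of 4-week-old Arabidopsis thaliana, raised at 24 °C under a cycle of 12 h light and 12 h darkness, on MS medium that held 1.5% sucrose. One group was wild type (3 arrays) and the other was the msh1 albino mutant (3 arrays), and the labels describe the replicates as biological. The allele of msh1, its generation and the accession of the wild type are not stated. MSH1, a nuclear gene, codes for a protein related to bacterial MutS that enters mitochondria and plastids, and its own transcript was not analysed here. Since each msh1 array came from albino tissue, genotype and albino state cannot be told apart.

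Plastid genes are transcribed by a bacterial-type polymerase, whose core subunits are coded in the plastid, and by phage-type polymerases coded in the nucleus. rpoB codes for the beta subunit of the plastid-encoded enzyme, rpoC1 for the beta' subunit and rpoC2 for the beta'' subunit, while the alpha subunit is coded by rpoA in a separate ribosomal protein operon. The rpoB operon is itself read by the nuclear-encoded enzyme, in the order rpoB, rpoC1, rpoC2, and most photosynthesis genes of the plastid are read by the plastid-encoded one. In mutants of tobacco that lack the plastid-encoded enzyme, transcripts of photosynthesis genes are low while those of the rpoB operon are kept or raised.

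All values below are RMA values on the log2 scale, so that a difference of 1 is 2-fold. They rank the brightness of 1 probe set between arrays and are not compared between genes as levels. The 75th percentile of an array lay between 7.75 and 7.94, and precision is limited by the number of arrays. They correlated at r = 0.989 to 0.995 within a group and at r = 0.969 to 0.985 between groups, across probe sets, which are not independent replicates. In these bulk samples, fewer cells of a type and less RNA per cell cannot be told apart. Of 14 leaf marker genes 2 were measured, LHCB4.1 and LHCB4.2 of the photosystem II antenna; their summed linear signal was 16400 in each wild-type array and 8560 to 10000 in the albino arrays. Both fell, though LHCB4.1 did not pass after quantile normalization again (limma adjusted p = 0.143) or on spiked controls (0.0877). Of 10 root markers 2 were measured, with a summed linear signal of 156 to 401 in wild type and 353 to 855 in albino arrays. PYK10, for a beta-glucosidase of root and hypocotyl, differed by 1.39 ± 0.44 (SE, limma adjusted p = 0.0911), and EXPA7, for a root hair expansin, differed by -0.01 ± 0.09. EXPA7 was dim, at 4.08 to 4.28 against array 25th percentiles of 3.96 to 4.06. The sum thus follows PYK10 alone, which read 7.10 to 9.71. None of 6 flower markers was measured, and the part of tissue make-up in the results below was not tested.

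The comparison asks whether transcripts of the operon differ between albino msh1 and wild-type plants. The rpoC2 transcript was higher in the albino tissue, 2.51-fold, while the differences of rpoB and rpoC1 were positive but did not pass the test. Each probe set was tested with limma over all 22746 probe sets (adjusted p under 0.05, Benjamini-Hochberg). Of these, 3.75% were called higher and 7.44% lower in the albino tissue, 11.2% in all, against 1 of 3 genes of the operon called higher and 0 lower. At an unadjusted p under 0.05, 25.7% of all probe sets passed, as did rpoB and rpoC2. The median difference over the 3 genes was 0.77, and over all probe sets it was -0.04. The split of calls depended on scaling. As deposited 854 were higher and 1693 lower, against 1301 and 1095 with arrays aligned on the 75th percentile and 1295 and 1065 on reference genes. After cyclic loess the counts were 1260 and 1047, and after quantile normalization again 1186 and 1297. On spiked controls they were 675 and 647, with a median difference over all probe sets of -0.046. There limma gave rpoB, rpoC1, rpoC2 and psbA the same SE of 0.26, so those counts do not reflect scaling alone.

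The rpoC2 probe set, for the beta'' subunit, read 8.46, 8.68 and 8.59 in wild-type replicates 1, 2 and 3, and 9.92, 10.12 and 9.67 in albino replicates 1, 2 and 3. Every albino array lay above every wild-type array, which was so for 10.1% of all probe sets; in 19.8% every albino array lay below every wild-type array. The mean went from 8.58 ± 0.11 to 9.91 ± 0.23 (SD, n = 3 arrays), a rise of 1.33 ± 0.13 (SE; 95% interval 1.02 to 1.64) with a limma adjusted p of 0.0021. In linear terms the interval runs from 2.03-fold to 3.11-fold.

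The rpoB probe set, for the beta subunit, read 4.68, 5.73 and 5.93 in wild type and 6.55, 5.81 and 6.29 in albino tissue, in replicate order. The groups overlapped, since albino replicate 2 lay below wild-type replicate 3. The means were 5.45 ± 0.67 and 6.22 ± 0.38 (SD, n = 3 arrays), a difference of 0.77 ± 0.33 (SE; 95% interval 0.01 to 1.53) that did not pass over all probe sets. The limma p was 0.0485 without adjustment and the adjusted p was 0.191. Of all probe sets, 99.4% had a smaller SD among the wild-type arrays. In wild-type replicate 1 rpoB was lower by 1.15 than the average of wild-type replicates 2 and 3. In 10 of 69 plastid genes, rpoB included, the same array was more than 1 below the average of the other wild-type arrays. It was lowest of the wild-type arrays in 39, with a median deviation of -0.18 on the log2 scale. Without it the rpoB difference was 0.39 ± 0.22 (limma adjusted p = 0.349). In all 3 wild-type arrays the value lay below the array median of 5.951 to 6.002. In albino replicate 2 it also lay below the array median, at 5.81 against 6.002. Background was not measured, and its part in the size of the difference was not tested.

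The rpoC1 probe set, for the beta' subunit, read 11.25, 11.001 and 10.96 in wild type and 11.30, 11.45 and 10.98 in albino tissue. Albino replicate 3 lay within the wild-type range and the others above it. The means were 11.07 ± 0.16 and 11.24 ± 0.24 (SD, n = 3 arrays). The difference of 0.17 ± 0.14 (SE; 95% interval -0.16 to 0.50) did not pass (limma adjusted p = 0.532), and its interval allows from 0.896-fold to 1.42-fold. The interval of rpoC1 ends below 1.02, where that of rpoC2 starts. The rpoC1 difference was 0.07 without albino replicate 2, 0.26 without wild-type replicate 1 and 0.30 without albino replicate 3.

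**Figure D1:**
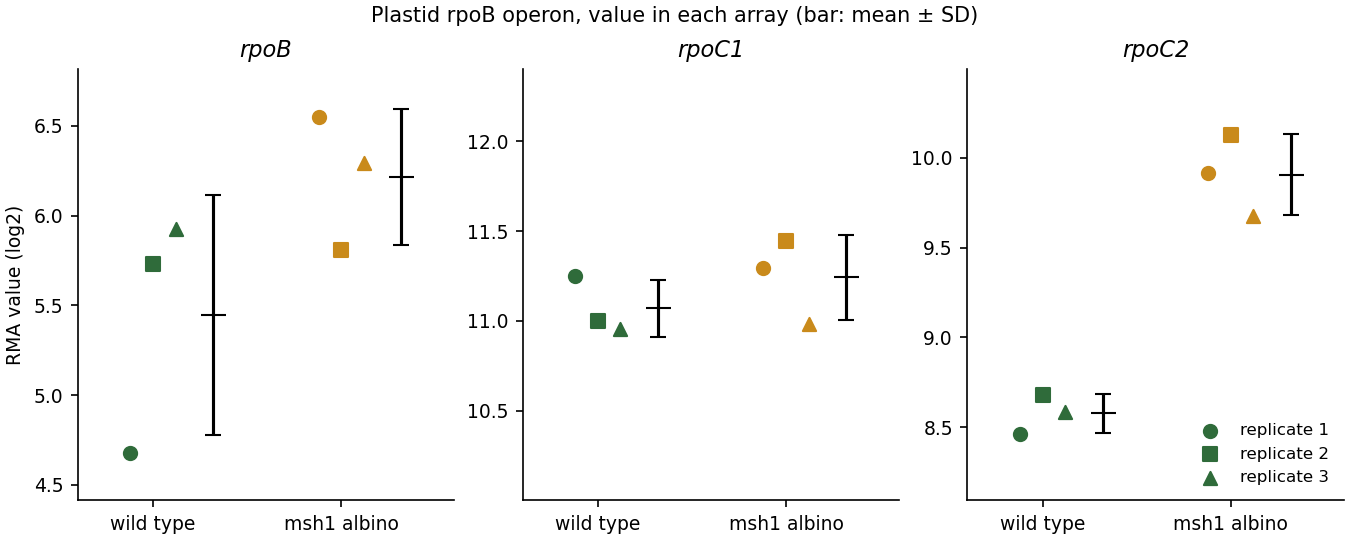
RMA value (log2) of rpoB, rpoC1 and rpoC2 in each of 3 wild-type and 3 msh1 albino arrays; symbols mark replicate numbers, bars the mean ± SD, and each panel spans the same range of log2 units around its own centre. The albino arrays of rpoC2 lie between 9.67 and 10.12, all above the wild-type arrays, while the groups of rpoB and rpoC1 overlap.

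Albino replicate 3 was the lowest albino array for rpoC1 and rpoC2, as for 45 of 69 plastid genes (median deviation -0.36 from the other albino arrays), but not for rpoB. That array also had the lowest 75th percentile, 7.75. With arrays aligned on the 75th percentile the differences were 1.41 ± 0.12 for rpoC2, 0.85 ± 0.32 for rpoB and 0.25 ± 0.13 for rpoC1, of which rpoC2 passed. After cyclic loess the rpoC1 difference was 0.33 ± 0.10, 1.93 times that of the deposited values, and did not pass (limma adjusted p = 0.0829).

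The members were set against each other within each array, which removes any shift that is common to the array. The value of rpoC2 minus that of rpoC1 was -2.79, -2.32 and -2.37 in wild type and -1.38, -1.32 and -1.31 in albino tissue. The albino arrays were nearly equal in this measure and all lay above the wild-type arrays, with a shift of 1.16 between group means. This is a two-sided exact permutation p of 0.1, the smallest that 3 against 3 arrays allow, and 0.3 adjusted over the 3 pairs. For rpoC2 minus rpoB the shift was 0.56 (exact permutation p = 0.3, adjusted 0.45) and for rpoB minus rpoC1 it was 0.60 (exact permutation p = 0.5, adjusted 0.5); in both the groups overlapped. The rpoC2 minus rpoB shift was 0.24 without albino replicate 1 and 0.89 without albino replicate 2, and the rpoB minus rpoC1 shift was 0.12 without wild-type replicate 1 and 0.90 without albino replicate 2.

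Among the 69 plastid genes the difference of rpoC2 ranked 1st, that of rpoB 6th and that of rpoC1 15th from the highest, and 18 of the 69 differences were positive. The next after rpoC2 was rpl20, for a ribosomal protein, at 1.30 ± 0.23 (SE), which is within the error of rpoC2. Ranks were 1, 7 and 15 after cyclic loess and after quantile normalization again. Of the other 66 plastid genes 5 rose and 21 fell, with a median of -0.37. The number that rose was 2 without wild-type replicate 2 or 3, and 3 without albino replicate 1 or 2. It was 7 without albino replicate 3 and with arrays aligned on the 75th percentile or on reference genes. After cyclic loess or quantile normalization again it was 8. The genes beside the operon on the plastid chromosome were all measured. On the side of rpoC2 follow rps2, a small-subunit ribosomal protein gene, then atpI and atpH, for subunits of the ATP synthase. On the side of rpoB lie petN, for a small subunit of cytochrome b6f, then psbM and psbD of photosystem II.

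The rps2 probe set, next to rpoC2, read 9.56, 9.80 and 9.87 in wild type and 10.34, 10.68 and 9.97 in albino tissue. The groups did not overlap, and the difference of 0.59 ± 0.18 (SE) missed the threshold as deposited (limma adjusted p = 0.0817) but passed with arrays aligned on the 75th percentile (0.67, adjusted p = 0.0262), on reference genes (0.0224), after cyclic loess (0.0196) or quantile normalization again (0.0207), with array weights (0.0444) and without albino replicate 3 (0.0323). Within arrays, rpoC2 minus rps2 shifted by 0.74 with no overlap (exact permutation p = 0.1), a contrast chosen after the values were seen. Further along, atpI differed by -0.49 ± 0.23 (adjusted p = 0.225) and atpH by -0.32 ± 0.33 (adjusted p = 0.634), neither passing. Without wild-type replicate 1, atpI was called lower (-0.77, adjusted p = 0.0226); atpH turned to 0.05 without wild-type replicate 2.

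On the other side petN fell by 1.17 ± 0.22 (limma adjusted p = 0.0161), from 6.60, 7.33 and 6.52 to 5.80, 5.41 and 5.73. The difference of psbM was -0.73 ± 0.25 (adjusted p = 0.113), and it was called lower with array weights (0.0330) and without albino replicate 2 (-1.03, adjusted p = 0.00837). The gene for the D2 protein of photosystem II, psbD, fell by 2.30 ± 0.25 (adjusted p = 0.00254). Differences were thus positive for the operon and rps2, and negative for the measured genes flanking them on both sides, atpH excepted without wild-type replicate 2.

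**Figure D2:**
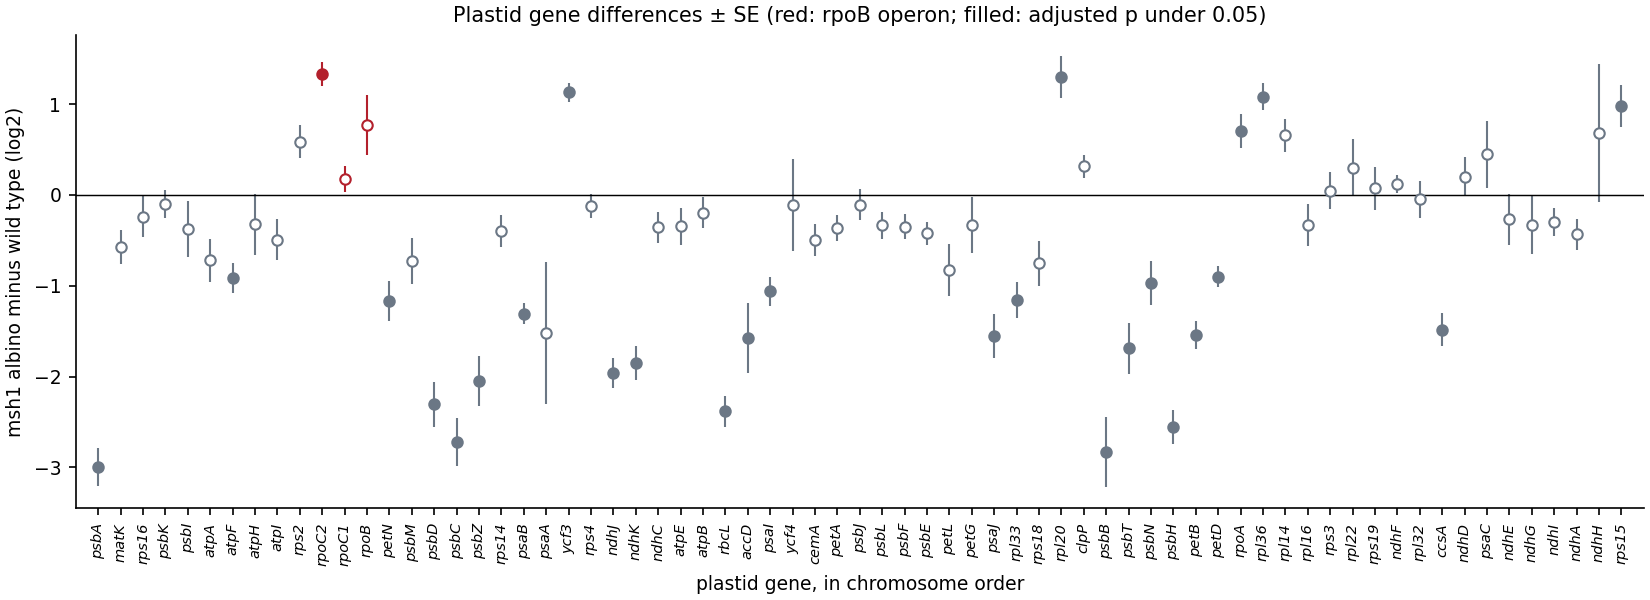
Difference msh1 albino minus wild type (log2, ± SE from limma) of 69 plastid genes in chromosome order, with the rpoB operon in red and filled symbols for an adjusted p under 0.05. The 3 genes of the operon and rps2 lie above 0, between atpI and petN below 0.

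Plastid genes for the photosystems, cytochrome b6f and the large subunit of RuBisCO, with the assembly factor genes ycf3 and ycf4, served as the group read mostly by the plastid-encoded polymerase. Of 29 measured, 15 fell and 1 rose (median -0.97). The one that rose was ycf3, by 1.13 ± 0.11 (limma adjusted p = 0.00203). The 4 with the largest differences were psbA (-2.999 ± 0.209), psbB (-2.83 ± 0.38), psbC (-2.72 ± 0.26) and psbH (-2.56 ± 0.19), all of photosystem II. The value of rpoC2 minus the mean of these 29 was -1.41, -1.59 and -1.56 in wild type and 0.86, 1.03 and 0.84 in albino tissue, a shift of 2.43. For rpoB it went from -5.19, -4.54 and -4.22 to -2.51, -3.29 and -2.54, a shift of 1.87. For rpoC1 it went from 1.38, 0.73 and 0.81 to 2.24, 2.35 and 2.15, a shift of 1.28. The groups did not overlap for any of the 3 genes, but the share of all probe sets that would separate them this way was not counted. The own values of rpoB and rpoC1 did overlap. Each shift had a two-sided exact permutation p of 0.1, the smallest possible, and 0.1 adjusted over the 3 genes. The photosynthesis genes were lower in the albino arrays, so these shifts hold their fall as well as any change of the operon. Of the rpoC1 shift of 1.28, the difference of rpoC1 itself made up 0.17, and the rest was the fall of these genes. Without a count over all probe sets, it is not known whether the lack of overlap by this measure is particular to the operon.

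**Figure D3:**
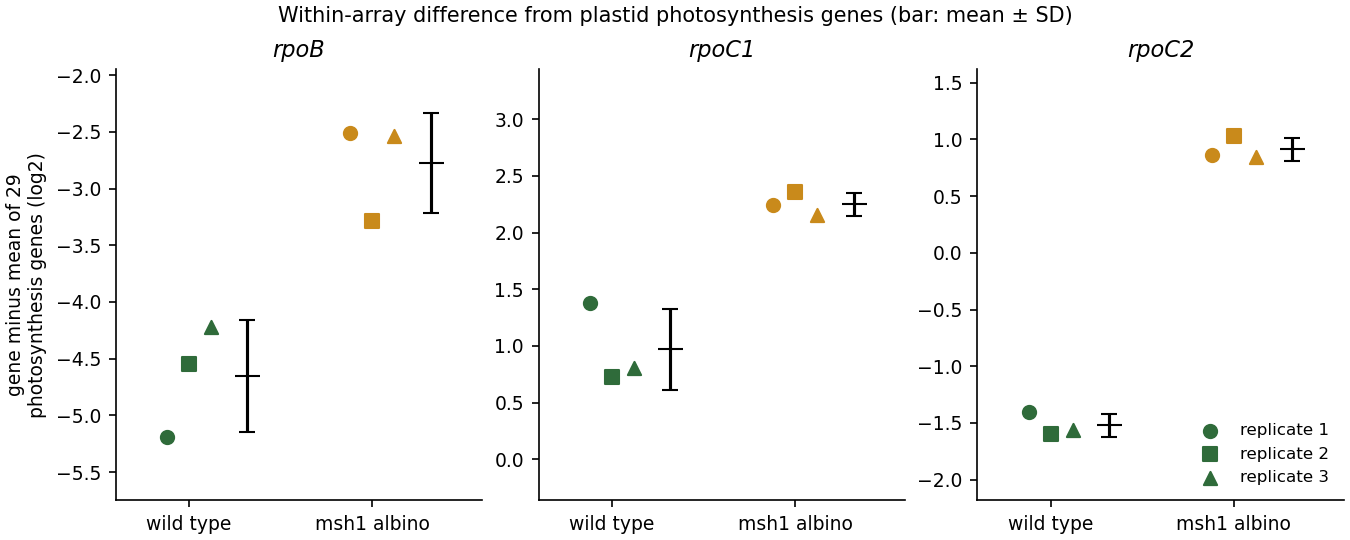
Value of rpoB, rpoC1 and rpoC2 minus the mean of 29 plastid photosynthesis genes in the same array (log2), for 3 wild-type and 3 msh1 albino arrays; symbols mark replicate numbers and bars the mean ± SD. All albino arrays lie above all wild-type arrays in each panel, with shifts of 1.87, 1.28 and 2.43 that include the fall of the photosynthesis genes.

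The remaining core subunit gene, rpoA, read 11.80, 11.34 and 11.45 in wild type and 12.32, 12.50 and 11.88 in albino tissue. It rose by 0.70 ± 0.18 (limma adjusted p = 0.0493), with no overlap, close to the threshold. It no longer passed when wild-type replicate 2 (adjusted p = 0.171) or 3 (0.139) or albino replicate 1 (0.131) or 2 (0.102) was left out, on spiked controls (0.0970) and with replicate number as a block (0.0672). All 4 core subunit genes thus had positive differences, of which rpoA and rpoC2 passed. Differences were positive in 18 of 69 plastid genes and in 9459 of 22746 probe sets. Of all probe sets, 3.75% were called higher.

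Of 4 other plastid genes listed for known promoters of the nuclear-encoded polymerase, accD and clpP were measured; as deposited 0 rose and 1 fell, whereas 1 rose and 0 fell after cyclic loess or quantile normalization again. The gene for a subunit of acetyl-CoA carboxylase, accD, went from 8.07, 9.76 and 9.52 to 7.47, 7.59 and 7.57 and fell by 1.58 ± 0.39 (limma adjusted p = 0.0397). It no longer passed when wild-type replicate 2 (0.131) or 3 (0.126) or any albino array (0.0692 to 0.101) was left out, and under cyclic loess (0.0539), quantile normalization again (0.0507) or an intensity trend (0.0787). clpP, for a protease subunit and named here after its values were seen, differed by 0.32 ± 0.13 as deposited (limma adjusted p = 0.166). It was called higher after cyclic loess (0.51, adjusted p = 0.0107) and after quantile normalization again (0.57, adjusted p = 0.00733).

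Of 16 measured ribosomal protein genes and matK, a splicing factor gene, 3 rose and 1 fell (median -0.00). Those that rose were rpl20 (1.30), rpl36 (1.08 ± 0.15) and rps15 (0.98 ± 0.23), and rpl33 fell by 1.16 ± 0.20. Their count was 1 to 5 higher and 0 to 3 lower with 1 array left out: rpl20 and rpl33 lost their calls without wild-type replicate 2 or 3, and rps15 without any single wild-type array, albino replicate 1 or albino replicate 2. Of 10 genes for the NADH dehydrogenase-like complex 0 rose and 2 fell, ndhJ (-1.96 ± 0.16) and ndhK (-1.85 ± 0.19), with 2 to 4 lower when 1 array was left out. Of 6 ATP synthase genes 0 rose and 1 fell, atpF (-0.92 ± 0.17), which did not pass without wild-type replicate 3 (adjusted p = 0.0517); 0 to 3 were lower when 1 array was left out.

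Nuclear partners of the polymerase were sparsely paired with probe sets in the annotation used. None of 6 sigma factor genes and none of 14 genes for polymerase-associated proteins was measured, and 1 of 3 phage-type polymerase genes was. That gene, AT5G15700, read 5.59, 5.68 and 5.83 in wild type and 5.99, 5.92 and 5.84 in albino tissue, with a difference of 0.22 ± 0.10 that did not pass (limma adjusted p = 0.231). Its groups did not overlap, though wild-type replicate 3 and albino replicate 3 differed by little. Of 3 nuclear factors for RNA editing with sites in rpoB transcripts, 0 passed; OTP81 differed by 0.30 ± 0.14 (adjusted p = 0.224) and CRR22 by -0.03 ± 0.17 (adjusted p = 0.948), the sign of CRR22 turning with scaling. The arrays do not measure editing.

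The genes most like each member were ranked by Pearson r over the 6 arrays, as a description with 6 points that share the 2 groups. Among the other 66 plastid genes rpoC2 was most like rpl36 (r = 0.99), ycf3, a photosystem I assembly factor (0.95), and rps15 (0.91), which were called higher as well. rpoC1 was most like rpoA (0.86), rps15 (0.83) and rps19 (0.81). rpoB was most like ndhH (0.84), psaC (0.82) and rpl14 (0.71), and ndhH and psaC also had wild-type replicate 1 more than 1 below the other wild-type arrays. Between members r was 0.65 for rpoB and rpoC2, 0.56 for rpoC1 and rpoC2 and -0.15 for rpoB and rpoC1. Over 13352 genes of all genomes the highest were AT4G36150, AT5G47130 and AT3G26440 for rpoC2 (r = 0.99 to 1.00), AT5G25270, AT5G29210 and GI, a circadian clock gene, for rpoB (r = 0.99), and AT2G40765, the metallothionein gene MT1C and AT3G10860 for rpoC1 (r = 0.99). As deposited, the 3 most like rpoC2 passed the test of group difference (0.57 ± 0.10, 0.50 ± 0.09 and 0.90 ± 0.09) and the other 6 did not. These outcomes follow largely from picking the genes by likeness to a member over the same arrays, and are no separate result. AT5G47130 no longer passed on spiked controls (limma adjusted p = 0.43), with the replicate block (0.0501), or once wild-type replicate 2 (0.0505) or 3 (0.0602) was left out, nor did AT4G36150 on spiked controls (0.266). GI passed on spiked controls (0.048) and with array weights (0.0443).

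**Figure D4:**
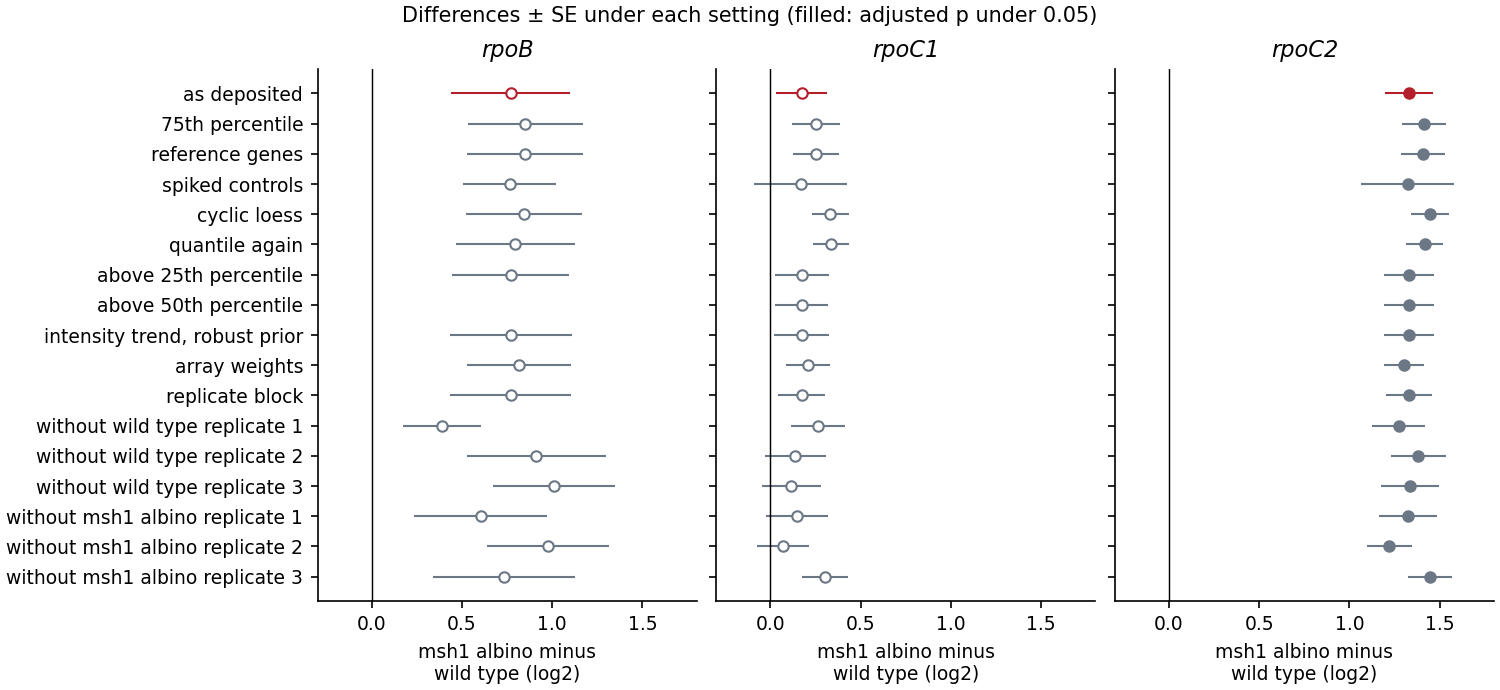
Difference msh1 albino minus wild type (log2, ± SE) of rpoB, rpoC1 and rpoC2 as deposited and under each alternative setting, with filled symbols for an adjusted p under 0.05; rpoB has no value above the 50th percentile because its probe set is dimmer. The rpoC2 difference lies between 1.22 and 1.45 and is called throughout, while rpoB and rpoC1 are positive and not called under any setting shown.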

How the data were processed

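The authors deposited log2 values, 1 for each probe set on each array, made with RMA in affy, per the submitters' processing notes; versions and settings are not given in those notes. Of 22810 probe sets, 64 array controls were left out. The annotation of the array, updated through the TAIR10.1 gene table (used for names and gene order), gave a single gene for 13513, several for 503 and none for 8730. For genes with several probe sets the one with the highest mean was used.

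Groups follow the labels. Differences are msh1 albino minus wild type, from lmFit and eBayes of limma 3.58.1 in R 4.3.3 (two-sided, Benjamini-Hochberg over all 22746, threshold 0.05, 95% intervals). The median SE was 0.12. The fit was also run on simulated data with independent noise, which does not test it for shifts shared by an array. Within-array contrasts used exact permutation tests. The named genes are the operon, its 3 neighbours on each side, of each list up to 4 passing members or else the 2 with the largest difference, and the 3 nearest genes by r. Members and lists were chosen with earlier results of these data known. Alternatives were other alignments of arrays (5 of 12 reference genes were measured), cyclic loess, quantile normalization, filters on dim probe sets, a variance trend, array weights, the replicate block, an adjusted p of 0.01 and leaving out each array.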

Additional observations from a re-analysis of the deposited data

How the results depend on the processing

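The difference of rpoC2 was positive and called in 16 of 16 alternatives (1.22 to 1.45, limma adjusted p = 1.74e-05 to 0.0152). That of rpoB was positive in 15 of 15 (0.39 to 1.01, adjusted p = 0.0517 to 0.418) and that of rpoC1 in 16 of 16 (0.07 to 0.33, adjusted p = 0.0770 to 1.0), with 0 calls for either; the filter at the 50th percentile left rpoB out. With 1 array left out the ranges were 0.39 to 1.01 for rpoB, 0.07 to 0.30 for rpoC1 and 1.22 to 1.45 for rpoC2. The replicate block gave limma adjusted p-values of 0.249 for rpoB, 0.540 for rpoC1 and 0.00945 for rpoC2, with 564 probe sets called higher and 921 lower. Deviations of same-numbered arrays correlated at 0.01, -0.34 and -0.02 over all probe sets. Of the wild-type arrays, 0 of 3 were closest to the albino array of the same number. Whether same-numbered samples shared a batch or harvest was not tested. Probe sets called higher numbered 1301 on the 75th percentile, 1295 on reference genes and 251 at an adjusted p of 0.01, against 854. Probe sets called lower numbered 1095, 1065 and 438 under these, 647 on spiked controls and 1047 after cyclic loess, against 1693. With 1 array left out 298 to 749 were higher and 553 to 1424 lower. On spiked controls limma assigned the same SE of 0.26 to rpoB, rpoC1 and rpoC2. It gave this SE also to psbA, PYK10 and EXPA7, whose SEs as deposited were 0.21, 0.44 and 0.09. Calls gained or lost on spiked controls, here and above, thus do not rest on each gene's own spread. Fewer arrays leave less power, and the other causes were not tested.

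Within-array shifts kept their sign in every alternative run, from 1.01 to 1.24 for rpoC2 minus rpoC1, 0.24 to 0.89 for rpoC2 minus rpoB and 0.12 to 0.90 for rpoB minus rpoC1. Some differences turned their sign, and not all of these were near 0 as deposited (ndhH 0.68 ± 0.76, psaC 0.45 ± 0.37, SE). CRR22 was 0.052 on the 75th percentile, 0.049 on reference genes, 0.040 after cyclic loess and 0.034 with array weights, and -0.193 to 0.086 with 1 array left out. EXPA7 was 0.069 on the 75th percentile, 0.066 on reference genes, 0.0063 after cyclic loess, and -0.065 to 0.034 with 1 array left out. With 1 array left out the range was -0.70 to 0.05 for atpH, -0.35 to 1.23 for ndhH, -0.032 to 0.75 for psaC and -0.17 to 0.34 for rps19. PYK10 passed in 5 settings, on the 75th percentile (adjusted p = 0.0449), reference genes (0.0357) and spiked controls (5.70e-06), with array weights (0.0304) and without albino replicate 3 (0.0374). Signal over background was not measured, which limits the dim rpoB probe set most.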
